A study of Mus musculus with 27 samples.

Results

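The genes described here are 10 genes of cartilage and bone: the transcription factors Sox9, Sox5 and Sox6, the cartilage and joint matrix genes Acan, Comp, Hapln1, Prg4 and Matn2, and the osteoblast transcription factors Runx2 and Sp7. They were followed through 27 mouse fibroblast cultures in 9 groups, taken through the first days of conversion to induced cardiomyocytes. A gene was represented by the probe set (the array's unit of measurement) that carried its symbol alone, and by the brightest one where it had several. Of the 10 genes, 9 were measured, each by 1 probe set, out of 19938 genes and 35556 probe sets in all. Runx2 had no probe set carrying its symbol alone and was not analysed here.

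Cartilage is built by chondrocytes, which embed themselves in a matrix of type II collagen and the large proteoglycan aggrecan. Sox9 is the transcription factor that starts this program, and Sox5 and Sox6 act beside it to drive the matrix genes. Aggrecan (Acan) is tied to hyaluronan by the link protein Hapln1, whereas Comp and Matn2 encode pentameric and filament-forming adaptor proteins of the matrix, and Prg4 encodes lubricin, the lubricant of joint surfaces. Sp7 (osterix) acts downstream of Runx2 in the bone-forming lineage. TGFβ ligands signal through a type I receptor kinase to Smad proteins and are known to steer mesenchymal cells toward cartilage, tendon or myofibroblast fates according to context. Fibroblast preparations from the embryo body hold cells of the connective tissue of limb and trunk.

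The study compared cultures given the 5 transcription factors HNGMT (Hand2, Nkx2.5, Gata4, Mef2C and Tbx5) with cultures given no factor (0TF), and asked how a TGFβ receptor inhibitor or TGFβ1 changed them. Mouse embryonic fibroblasts (MEFs, from mid-gestation embryos of mixed background without head and viscera, passages 3 to 5) formed 6 groups: 0TF or HNGMT, each with DMSO vehicle, with 2 ng/mL TGFβ1 or with 0.5 µM SB431542 (SB), a blocker of the type I TGFβ receptor kinase. Adult cardiac fibroblasts (CFs, from hearts of mice aged 8 to 12 weeks, passage 3) formed 3 groups, all with HNGMT, given DMSO, 2 ng/mL TGFβ1 or 5 µM SB. Each group had 3 cultures, 1 array per culture. The factors were carried by lentiviruses under a doxycycline-controlled promoter, every culture was put in medium with 2 µg/mL doxycycline on Day 0, and RNA was collected on Day 3. The protocol also gives the cultures lentiviruses for the doxycycline-responsive activator and for a calcium reporter driven by the Troponin T promoter. In the paper's protocol a lentivirus for a fluorescent nuclear label (mCherry) is added on Day 0. DMSO, SB and TGFβ1 are added there on the day before doxycycline. The labels call 0TF an empty vector in one place and no factor treatment in another, so the 5 factors and the added virus cannot be told apart, and the protocol attached to the CF cultures describes MEFs. CFs without factors were not analysed here. The labels call the cultures independent biological replicates. Since RNA came from whole cultures, fewer cells of a type and less RNA per cell cannot be told apart.

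Promoter sequences with a single listed start were held for 3 of the measured members, and they are shown because these genes took different courses: Sox5 moved with the factors, Acan rose and Hapln1 fell with TGFβ1 in HNGMT MEFs. Each run is the 250 bases before the start of the gene on its own strand, 5′ to 3′, from RefSeq on GRCm38.p6. Capitals mark matches to the Smad-binding motif CAGAC or its reverse complement GTCTG. GATA motifs (AGATAA or TGATAA, and TTATCT or TTATCA on the other strand) were searched for in the same windows.
Sox5, chr6:143947107-143947356, minus strand: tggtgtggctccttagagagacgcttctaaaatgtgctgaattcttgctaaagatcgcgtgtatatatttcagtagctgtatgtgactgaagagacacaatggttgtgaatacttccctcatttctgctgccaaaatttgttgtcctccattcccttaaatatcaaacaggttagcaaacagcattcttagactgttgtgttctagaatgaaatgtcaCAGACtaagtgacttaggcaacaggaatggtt
Acan, chr7:79052976-79053225, plus strand: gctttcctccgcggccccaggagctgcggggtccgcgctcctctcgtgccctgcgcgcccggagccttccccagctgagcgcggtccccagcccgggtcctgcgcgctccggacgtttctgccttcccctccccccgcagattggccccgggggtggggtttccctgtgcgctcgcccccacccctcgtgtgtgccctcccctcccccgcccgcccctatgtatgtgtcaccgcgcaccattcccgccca
Hapln1, chr13:89540386-89540635, plus strand: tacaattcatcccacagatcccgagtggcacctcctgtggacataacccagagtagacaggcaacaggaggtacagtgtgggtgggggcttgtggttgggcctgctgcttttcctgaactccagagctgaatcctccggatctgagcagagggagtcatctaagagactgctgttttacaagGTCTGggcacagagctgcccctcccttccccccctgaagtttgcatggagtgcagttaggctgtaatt
The Sox5 window held 1 CAGAC, 32 bases before the start, and the Hapln1 window 1 GTCTG, 68 bases before the start. The Acan window held none of these, and no GATA motif was found in any of the 3 windows. Among 32851 windows of this length, 42.2% held CAGAC or GTCTG and 16.6% a GATA motif. These are matches of letters and not sites of binding. Of the 10 genes 5 were matched in the promoter table (Sox5, Sox6, Acan, Hapln1 and Runx2), of which Runx2 is not shown because it was not measured, and Sox6 because it has 6 listed starts.

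Values are log2 intensities as deposited, so 1 unit is a 2-fold difference, and levels are not compared between genes. Array medians were 7.83 to 7.91 in MEFs and 7.36 to 7.43 in CFs, so the cell types are set side by side without a test. As a guide to dim signals, 8 genes of unrelated tissues (such as Alb of liver and Umod of kidney) ran from 5.83 to 7.61 in MEFs, with a median of 6.56, and from 5.42 to 7.41 in CFs, with a median of 6.13. A group is called dim below when all 3 of its cultures lay at or under the top of that range for the cell type. Tg alone set that top, at 7.61 in MEFs and 7.41 in CFs. The highest of the other genes reached 7.30 (Gh) in MEFs and 6.70 (Mip) in CFs. Among the members, the dim calls of Acan and Comp in CFs, Acan in MEF HNGMT+DMSO and Prg4 in MEF HNGMT+SB rest on Tg. A difference from a dim group is given as "at least" the fold between the mean of the brighter group and the top of the range, beside the fitted value, and between 2 dim groups no fold is given. The 10 fibroblast markers fixed as a list averaged 11.88 to 13.09 in MEFs and 10.69 to 11.30 in CFs. The 10 endothelial markers averaged 7.01 to 7.36 in MEFs, against 9.55 to 11.26 in the CF cultures, so the cultures labelled cardiac fibroblast carried strong endothelial signal. One culture stood apart, CF HNGMT+SB replicate 3: its endothelial markers averaged 9.55 against 11.24 and 11.26 in the other SB cultures, its fibroblast markers 11.30 against 10.70 and 10.69, and Sox9, Sox6 and Prg4 stood farthest above both other SB cultures in it, while Sox5 and Matn2 lay below both. Results in CFs that rest on it are given with and without it.

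**Figure D1:**
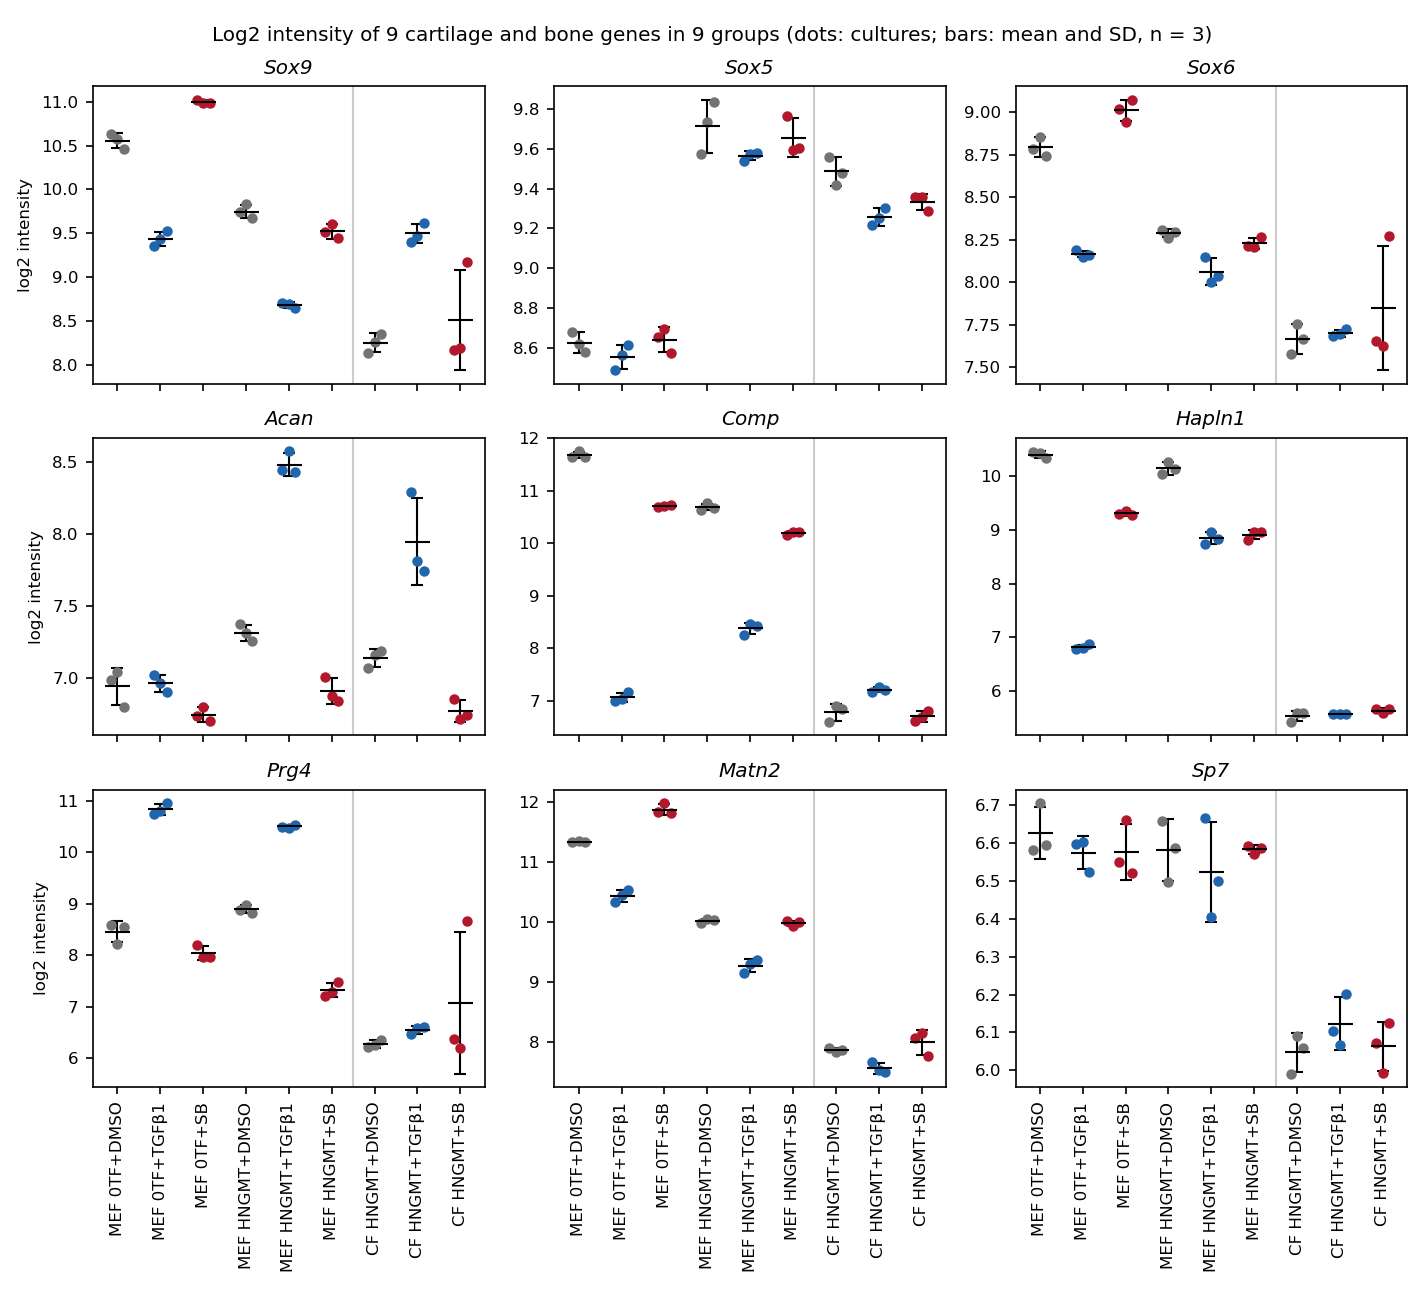
Log2 intensity (vertical axes, each panel with its own range) of the 9 measured genes in the 9 groups; dots are cultures, bars the mean and SD of 3 cultures, and the grey line separates MEFs from CFs. Comp falls from a mean of 11.68 with DMSO to 7.06 with TGFβ1 in 0TF MEFs, Acan is highest in MEF HNGMT+TGFβ1 at 8.48, and Sp7 stays between 5.99 and 6.71 throughout.

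A gene was called changed when limma's moderated test, adjusted over all 19938 genes by the Benjamini-Hochberg method, gave an adjusted p under 0.05 and the fold reached the size used in the study: 1.5 or more in MEFs, while in CFs the higher group had to exceed the lower by 25% or more. The members were chosen with earlier results of these data known, so the shares beside their counts are description and not a test. TGFβ1 moved most of the members in MEFs. In 0TF MEFs 1 member rose (Prg4) and 5 fell (Sox9, Sox6, Comp, Hapln1 and Matn2), 6 of 9 where 10.4% of all genes were called (4.21% higher and 6.19% lower). In HNGMT MEFs 2 rose (Acan and Prg4) and 4 fell (Sox9, Comp, Hapln1 and Matn2), where 5.77% of all genes were called (2.23% higher and 3.54% lower). The median log2 fold change of the 9 members was -0.63 in 0TF and -0.23 in HNGMT MEFs, against 0.05 and 0.02 over all genes. Fibroblast markers moved with TGFβ1 as well, 4 of 10 lower in each arm, with list means of 12.49 to 12.61 against 13.03 to 13.09 in 0TF MEFs, and their part in the members' falls was not tested. In HNGMT MEFs 4 of 8 cardiomyocyte markers also fell with TGFβ1, from a mean of 10.12 to 10.20 with DMSO to 9.75 to 9.82, and their part was not tested either. SB, at the doses used, called 2 members in 0TF MEFs (Comp and Hapln1, both lower, against 2.4% of all genes, 1.26% higher and 1.13% lower) and 2 in HNGMT MEFs (Hapln1 and Prg4, both lower, against 0.823% of all genes, 0.391% higher and 0.431% lower). With SB in HNGMT MEFs 5 of 8 cardiomyocyte markers rose, to a mean of 10.67 to 10.97, and their part in the falls of Hapln1 and Prg4 was not tested. The comparisons of TGFβ1 and of SB with DMSO share their DMSO cultures, so they are not independent of each other.

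The 5 factors themselves moved the members in both directions. Without small molecules Sox5 rose and Sox9, Comp and Matn2 fell (9.08% of all genes called, 4.56% higher and 4.51% lower). With TGFβ1 in both arms Sox5, Acan, Comp and Hapln1 were higher and Sox9 and Matn2 lower in HNGMT than in 0TF (10.3% of all genes, 6.37% higher and 3.88% lower). With SB in both arms Sox5 was higher and Sox9, Sox6, Prg4 and Matn2 were lower (9.85% of all genes, 5.04% higher and 4.81% lower). In these comparisons cardiomyocyte markers also moved: 7 of 8 rose with HNGMT in DMSO, from a mean of 7.70 to 7.84 in 0TF to 10.12 to 10.20, and 4 of 10 fibroblast markers fell. With SB in both arms 8 of 9 adipocyte markers were lower in HNGMT, at a mean of 8.21 to 8.33 against 10.76 to 10.82 in 0TF, and 8 of 8 cardiomyocyte markers were higher. Their part in the members' changes was not tested. In CFs Sox9, Acan and Comp were called higher with TGFβ1 (5.32% of all genes called, 3.11% higher), Comp between dim groups. The calls of Sox9 and Comp there were lost with some single cultures left out. SB called 0 of the 9 members in CFs (0.241% of all genes called). For SB in CFs the lowest unadjusted p values of members in the limma fit were those of Sox5 and Acan, both lower. They were 0.0128 for Sox5 (adjusted p = 0.495) and 0.0235 for Acan (adjusted p = 0.629). The share of all genes reaching such unadjusted values was not counted. Acan was called with all 27 arrays in the fit and with array weights. By the adjusted p alone, with no fold threshold, 7 of 9 members differed with SB in 0TF MEFs (16.6% of all genes), 5 with SB in HNGMT MEFs (7.38%), 8 with HNGMT in DMSO (40.5%), 8 with HNGMT in SB (41.8%), and 5 in the difference between the 2 SB effects (8.43%).

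**Figure D2:**
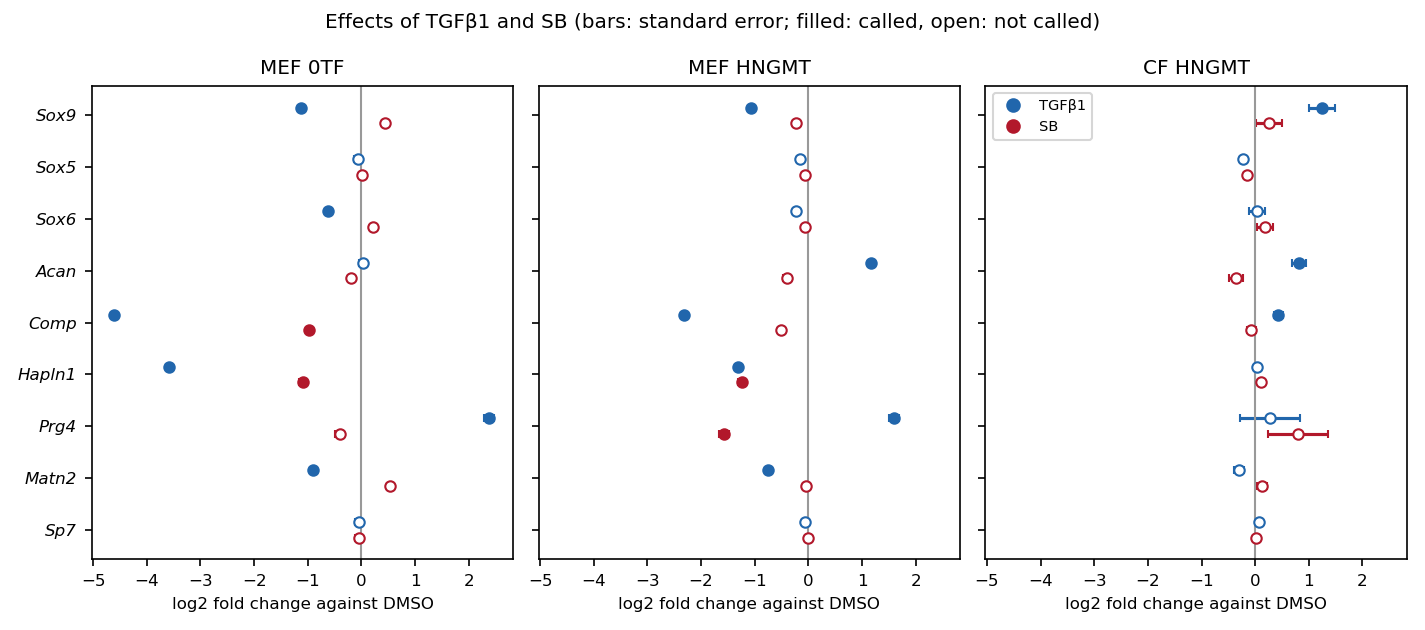
Log2 fold change against DMSO (horizontal axes, one scale) of each gene with TGFβ1 and with SB in MEF 0TF, MEF HNGMT and CF HNGMT; points are fitted values, bars standard errors, filled points called and open points not called. In 0TF MEFs Comp lies at -4.62, Hapln1 at -3.59 and Prg4 at 2.38, the values of Comp and Hapln1 being taken to dim TGFβ1 groups, and with TGFβ1 Sox9 lies below 0 in both MEF panels and above 0 in CFs.

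Sox9, the leading factor of chondrocytes, fell with TGFβ1 in MEFs and rose with it in CFs. In 0TF MEFs Sox9 read 10.63, 10.58 and 10.46 with DMSO, 9.36, 9.43 and 9.52 with TGFβ1, and 11.03, 10.99 and 10.99 with SB. In HNGMT MEFs it read 9.74, 9.83 and 9.67 with DMSO, 8.70, 8.70 and 8.65 with TGFβ1, and 9.52, 9.60 and 9.44 with SB. The groups did not overlap, except that the SB cultures with HNGMT overlapped the TGFβ1 cultures without it, and every HNGMT group lay under its 0TF counterpart. TGFβ1 lowered Sox9 2.17-fold in 0TF MEFs (log2 fold change -1.12, standard error 0.05, adjusted p = 9.26e-12) and 2.09-fold in HNGMT MEFs (log2 fold change -1.06, standard error 0.05, adjusted p = 5.07e-11). The difference between these effects was 0.05 on the log2 scale (standard error 0.08, adjusted p = 0.664). SB had opposite signs in the 2 arms, with 0.44 (standard error 0.05, adjusted p = 8.17e-06) in 0TF and -0.23 (standard error 0.05, adjusted p = 0.0136) in HNGMT MEFs, both under the fold threshold. The difference between the 2 SB effects passed (log2 fold change -0.67, standard error 0.08, adjusted p = 1.11e-05), where 1.96% of all genes were called. In the same difference 9 of 9 adipocyte markers were lower and 6 of 8 cardiomyocyte markers higher, and their part was not tested.

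HNGMT lowered Sox9 under each treatment in MEFs, 1.75-fold with DMSO (log2 fold change -0.81, standard error 0.05, adjusted p = 9.1e-10), 1.69-fold with TGFβ1 (log2 fold change -0.76, standard error 0.05, adjusted p = 1.96e-09) and 2.79-fold with SB (log2 fold change -1.48, standard error 0.05, adjusted p = 1.96e-13). In CFs Sox9 read 8.13, 8.26 and 8.35 with DMSO, 9.40, 9.47 and 9.62 with TGFβ1, and 8.17, 8.19 and 9.17 with SB. The TGFβ1 cultures lay above every DMSO and SB culture, and SB replicate 3 lay about 1 unit above both other SB cultures. The SB value was 0.26 (adjusted p = 0.959) and without SB replicate 3 it was -0.07 (adjusted p = 0.899). The rise with TGFβ1 was 2.38-fold (standard error 0.24 on the log2 scale, adjusted p = 0.0193). Endothelial markers averaged 10.35 to 10.40 in these TGFβ1 cultures against 10.92 to 11.05 with DMSO. Of 8 cardiomyocyte markers 2 fell, where 2.2% of all genes fell. Of 10 fibroblast markers 1 rose and 2 fell, where 3.11% of all genes rose. The part of these markers in the rise was not tested. The standard error rested on the spread of the SB cultures: without SB replicate 3 the fold was the same, with a standard error of 0.07 and an adjusted p of 1.17e-05, where 10.8% of all genes were called. With that culture kept, leaving out any 1 of the DMSO or TGFβ1 cultures took the adjusted p of Sox9 to between 0.0569 and 0.0856. The TGFβ1 effect in CFs exceeded that in HNGMT MEFs by 2.31 on the log2 scale (standard error 0.22, adjusted p = 1.09e-07), where 4.38% of all genes were called.

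Sox5, a partner of Sox9 without a transactivation domain of its own, rose with the factors and was not called with TGFβ1 or SB. In 0TF MEFs Sox5 read 8.68, 8.62 and 8.58 with DMSO, 8.49, 8.56 and 8.61 with TGFβ1, and 8.65, 8.70 and 8.58 with SB. In HNGMT MEFs it read 9.57, 9.73 and 9.83 with DMSO, 9.54, 9.57 and 9.58 with TGFβ1, and 9.77, 9.60 and 9.61 with SB. All 9 HNGMT cultures lay above all 9 cultures without factors, while within each arm the treatments overlapped, apart from TGFβ1 and SB with HNGMT. The rise with HNGMT was 2.12-fold with DMSO (log2 fold change 1.09, standard error 0.06, adjusted p = 8.06e-11), 2.01-fold with TGFβ1 (log2 fold change 1.01, standard error 0.06, adjusted p = 1.76e-10) and 2.02-fold with SB (log2 fold change 1.01, standard error 0.06, adjusted p = 1.75e-10). In CFs Sox5 read 9.56, 9.42 and 9.48 with DMSO, 9.21, 9.25 and 9.30 with TGFβ1, and 9.36, 9.36 and 9.29 with SB. The TGFβ1 and SB cultures were below the DMSO cultures there, by values under the fold threshold (log2 fold change -0.23, standard error 0.05, adjusted p = 0.0263 for TGFβ1).

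Sox6, the close relative of Sox5, fell in 2 of the comparisons and rose in none. In 0TF MEFs Sox6 read 8.78, 8.86 and 8.74 with DMSO, 8.19, 8.15 and 8.16 with TGFβ1, and 9.02, 8.94 and 9.07 with SB. MEFs with HNGMT gave 8.31, 8.26 and 8.30 with DMSO, 8.15, 8.0 and 8.03 with TGFβ1, and 8.21, 8.21 and 8.26 with SB. TGFβ1 lowered Sox6 1.55-fold in 0TF MEFs (log2 fold change -0.63, standard error 0.04, adjusted p = 1.29e-09), just past the fold threshold, and the call was lost after quantile normalization (-0.56) and after centring the arrays on their medians (-0.55), both added to the deposited scaling. In HNGMT MEFs the value was -0.23 (standard error 0.04, adjusted p = 0.00044). HNGMT lowered Sox6 1.72-fold in the presence of SB (log2 fold change -0.78, standard error 0.04, adjusted p = 6.44e-11), while with DMSO the value was -0.51 (standard error 0.04, adjusted p = 2.88e-08) and under the fold threshold. In CFs Sox6 read 7.58, 7.75 and 7.67 with DMSO, 7.68, 7.69 and 7.72 with TGFβ1, and 7.65, 7.62 and 8.27 with SB. Apart from the high SB replicate 3 all CF cultures lay between 7.58 and 7.75, and the SB value of 0.18 (adjusted p = 0.959) became -0.03 (adjusted p = 0.954) without it.

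**Figure D3:**
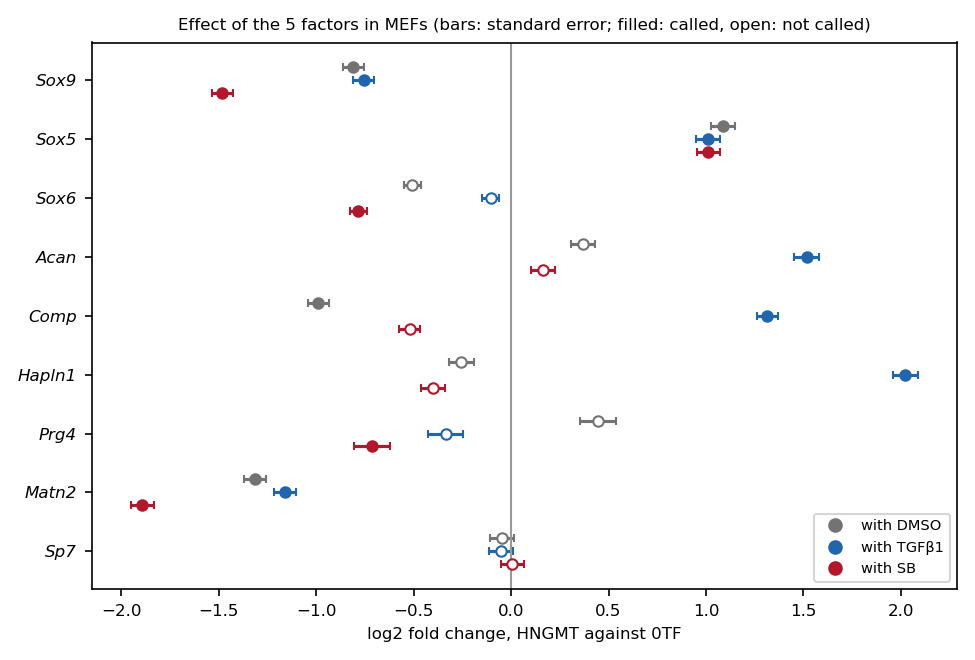
Log2 fold change of HNGMT against 0TF in MEFs (horizontal axis) for each gene with DMSO, TGFβ1 or SB in both arms; points are fitted values, bars standard errors, filled points called and open points not called. Sox5 lies near 1 under all 3 treatments and Matn2 between -1.89 and -1.16, whereas Acan, Comp and Hapln1 are called higher with TGFβ1, at 1.52, 1.31 and 2.02, each against a dim 0TF group.

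Acan, the aggrecan core protein, responded to TGFβ1 in cultures that had received the factors. In 0TF MEFs Acan read 6.99, 7.04 and 6.80 with DMSO, 7.02, 6.97 and 6.90 with TGFβ1, and 6.74, 6.80 and 6.70 with SB. With HNGMT, MEFs gave 7.37, 7.31 and 7.26 with DMSO, 8.44, 8.57 and 8.43 with TGFβ1, and 7.01, 6.88 and 6.84 with SB. The 3 HNGMT+TGFβ1 cultures stood about 1 unit above every other MEF culture, and all of those others lay inside the range of the genes of unrelated tissues. TGFβ1 raised Acan at least 1.83-fold from a dim DMSO group in HNGMT MEFs (fitted log2 fold change 1.17, standard error 0.06, adjusted p = 9.04e-11), while both 0TF groups were dim (0.02, standard error 0.06, adjusted p = 0.819). The fitted difference between these effects was 1.15 (standard error 0.09, adjusted p = 1.73e-08), where 7.45% of all genes were called, and 3 of its 4 groups were dim. Against 0TF, Acan was at least 1.83-fold higher with HNGMT when both arms had TGFβ1. SB gave values under the fold threshold and between dim groups, -0.19 (standard error 0.06, adjusted p = 0.0391) in 0TF and -0.40 (standard error 0.06, adjusted p = 0.000329) in HNGMT MEFs, so the size of a fall could not be measured.

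In CFs Acan read 7.07, 7.16 and 7.19 with DMSO, 8.29, 7.81 and 7.74 with TGFβ1, and 6.85, 6.71 and 6.75 with SB. The 3 TGFβ1 cultures lay above the DMSO cultures and these above the SB cultures, with replicate 1 highest among the TGFβ1 cultures, and only the TGFβ1 cultures lay above the range of the genes of unrelated tissues. The rise with TGFβ1 from the dim DMSO group was at least 1.45-fold (fitted log2 fold change 0.81, standard error 0.13, adjusted p = 0.00859), and it was called with each culture left out in turn. The SB value, between 2 dim groups, was -0.37 (standard error 0.13, adjusted p = 0.629), and without SB replicate 3 it was -0.35 (adjusted p = 0.376). The TGFβ1 effect on Acan in CFs minus that in HNGMT MEFs was -0.36 (standard error 0.14, adjusted p = 0.0808), with both DMSO groups dim.

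Hapln1, the link protein that fastens aggrecan to hyaluronan, fell with TGFβ1 in the same HNGMT MEFs in which Acan rose. In 0TF MEFs Hapln1 read 10.45, 10.43 and 10.34 with DMSO, 6.78, 6.81 and 6.87 with TGFβ1, and 9.30, 9.35 and 9.27 with SB. In HNGMT MEFs it read 10.04, 10.27 and 10.13 with DMSO, 8.73, 8.95 and 8.84 with TGFβ1, and 8.81, 8.96 and 8.96 with SB. The TGFβ1 cultures without factors stood apart under all other MEF cultures and within the range of the genes of unrelated tissues. TGFβ1 lowered Hapln1 at least 6.96-fold in 0TF MEFs, to that dim level (fitted log2 fold change -3.59, standard error 0.06, adjusted p = 1.22e-17) and 2.48-fold in HNGMT MEFs (log2 fold change -1.31, standard error 0.06, adjusted p = 2.36e-11), and the falls differed by at least 1.49 on the log2 scale (fitted difference 2.28, standard error 0.09, adjusted p = 2.95e-12).

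SB lowered Hapln1 as well, 2.14-fold in 0TF MEFs (log2 fold change -1.09, standard error 0.06, adjusted p = 5.3e-10) and 2.36-fold in HNGMT MEFs (log2 fold change -1.24, standard error 0.06, adjusted p = 6.71e-10), so both the ligand and the receptor inhibitor left it below the vehicle cultures they share. The SB effects in the 2 arms differed by -0.15 (standard error 0.09, adjusted p = 0.45). HNGMT against 0TF gave -0.25 (standard error 0.06, adjusted p = 0.00288) with DMSO, under the fold threshold, and an at least 2.36-fold higher level with TGFβ1 in both arms, where the 0TF group was dim (fitted log2 fold change 2.02, standard error 0.06, adjusted p = 1.97e-14). In CFs Hapln1 read 5.42, 5.58 and 5.58 with DMSO, 5.57, 5.56 and 5.57 with TGFβ1, and 5.65, 5.58 and 5.65 with SB. All of these lay in the range of the genes of unrelated tissues, so a fall could not have been measured there. The TGFβ1 effect in CFs minus that in HNGMT MEFs was 1.35 (standard error 0.09, adjusted p = 1.71e-10), a difference between a fall and a level that was already dim.

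Comp, the pentameric adaptor of cartilage and tendon matrix, fell to dim levels with TGFβ1 in 0TF MEFs. In 0TF MEFs Comp read 11.65, 11.75 and 11.64 with DMSO, 6.99, 7.04 and 7.16 with TGFβ1, and 10.69, 10.71 and 10.73 with SB. HNGMT MEFs gave Comp values of 10.64, 10.76 and 10.68 with DMSO, 8.25, 8.45 and 8.42 with TGFβ1, and 10.15, 10.22 and 10.20 with SB. The TGFβ1 cultures were the lowest of each arm without overlap, and those without factors lay in the range of the genes of unrelated tissues. TGFβ1 lowered Comp at least 16.8-fold in 0TF MEFs (fitted log2 fold change -4.62, standard error 0.05, adjusted p = 1.98e-19) and 4.97-fold in HNGMT MEFs (log2 fold change -2.31, standard error 0.05, adjusted p = 7.47e-15). The falls differed by at least 1.76 on the log2 scale (fitted difference 2.30, standard error 0.08, adjusted p = 4.06e-13). SB lowered Comp 1.96-fold in 0TF MEFs (log2 fold change -0.97, standard error 0.05, adjusted p = 4.11e-10), and in HNGMT MEFs gave -0.50 (standard error 0.05, adjusted p = 6.92e-06), under the fold threshold.

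Across the factors, Comp was 1.98-fold lower with HNGMT in DMSO (log2 fold change -0.99, standard error 0.05, adjusted p = 6.12e-11) and at least 1.71-fold higher with HNGMT when both arms had TGFβ1, the 0TF group being dim (fitted log2 fold change 1.31, standard error 0.05, adjusted p = 9.1e-13). In CFs Comp read 6.59, 6.89 and 6.84 with DMSO, 7.16, 7.25 and 7.19 with TGFβ1, and 6.61, 6.68 and 6.80 with SB. These levels lay in the range of the genes of unrelated tissues. Within it the TGFβ1 cultures stood above all DMSO and SB cultures, a difference between dim groups (fitted log2 fold change 0.43 against DMSO, standard error 0.08, adjusted p = 0.0194). That call was lost without DMSO replicate 3 or without any 1 of the TGFβ1 cultures, at adjusted p values of 0.0535 to 0.084, and without SB replicate 3 the adjusted p was 0.00443. The TGFβ1 effect in CFs minus that in HNGMT MEFs was 2.74 (standard error 0.10, adjusted p = 1.11e-14). It sets a fall in MEFs against CF levels that were dim by the limit Tg set, so no fall could be bounded there.

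Prg4, which encodes lubricin, was the member that rose with TGFβ1 in both arms of MEFs. In 0TF MEFs Prg4 read 8.58, 8.22 and 8.56 with DMSO, 10.74, 10.81 and 10.95 with TGFβ1, and 8.20, 7.97 and 7.97 with SB. The HNGMT cultures read 8.89, 8.98 and 8.83 with DMSO, 10.49, 10.47 and 10.53 with TGFβ1, and 7.22, 7.30 and 7.48 with SB. The 6 TGFβ1 cultures stood above all others, and HNGMT+SB was the lowest MEF group and dim. TGFβ1 raised Prg4 5.21-fold in 0TF (log2 fold change 2.38, standard error 0.09, adjusted p = 4.04e-13) and 3.03-fold in HNGMT MEFs (log2 fold change 1.60, standard error 0.09, adjusted p = 2.16e-10), and the rise was smaller with HNGMT (log2 fold change -0.78, standard error 0.13, adjusted p = 0.000134). SB lowered Prg4 at least 2.45-fold in HNGMT MEFs, to that dim level (fitted log2 fold change -1.57, standard error 0.09, adjusted p = 4.76e-09), while in 0TF MEFs the value was -0.41 (standard error 0.09, adjusted p = 0.00369) and under the fold threshold. The 2 SB values differed by at least 0.88 on the log2 scale. In the presence of SB, Prg4 was at least 1.36-fold lower with HNGMT, a bound under the fold threshold, although the fitted value passed (log2 fold change -0.71, standard error 0.09, adjusted p = 3.72e-06).

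In CFs Prg4 read 6.21, 6.26 and 6.36 with DMSO, 6.47, 6.59 and 6.60 with TGFβ1, and 6.37, 6.20 and 8.67 with SB. The DMSO and TGFβ1 cultures did not overlap, although all 6 lay between 6.21 and 6.60, and SB replicate 3 stood more than 2 units above every other CF culture. With that culture in the fit the standard error was 0.56 for both comparisons, and the TGFβ1 value of 0.27 had an adjusted p of 0.872. Without it the standard error was 0.06 and the adjusted p 0.0161, with a fold under the threshold. The SB value went from 0.80 with that culture to 0.01 without it. The TGFβ1 effect in CFs minus that in HNGMT MEFs was -1.33 (standard error 0.50, adjusted p = 0.0816), and without SB replicate 3 it was called (adjusted p = 2.58e-08, 5.16% of all genes). The DMSO and TGFβ1 cultures of CFs lay in the range of the genes of unrelated tissues, and the TGFβ1 cultures of MEFs well above it.

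**Figure D4:**
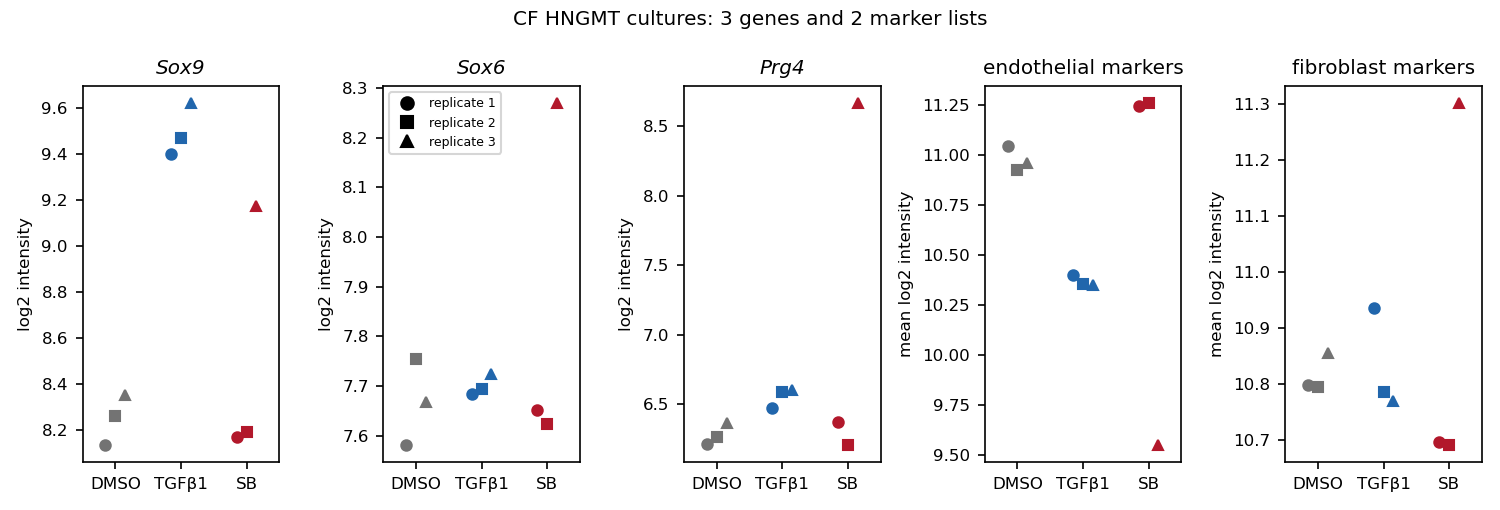
Log2 intensity of Sox9, Sox6 and Prg4, and mean log2 intensity of 10 endothelial and 10 fibroblast markers (vertical axes, each with its own range), in the 9 CF HNGMT cultures; symbols are the replicate numbers. SB replicate 3 differs from both other SB cultures in all 5 panels, with Prg4 at 8.67 against 6.37 and 6.20.

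Matn2, a matrilin of many connective tissues, was lowered by the factors and by TGFβ1. In 0TF MEFs Matn2 read 11.33, 11.35 and 11.33 with DMSO, 10.33, 10.45 and 10.53 with TGFβ1, and 11.83, 11.98 and 11.81 with SB. In HNGMT MEFs it read 9.99, 10.05 and 10.04 with DMSO, 9.15, 9.31 and 9.36 with TGFβ1, and 10.01, 9.93 and 10.00 with SB. Every HNGMT culture lay below every culture without factors. HNGMT lowered Matn2 2.48-fold with DMSO (log2 fold change -1.31, standard error 0.06, adjusted p = 3.01e-12), 2.23-fold with TGFβ1 (log2 fold change -1.16, standard error 0.06, adjusted p = 1.24e-11) and 3.71-fold with SB (log2 fold change -1.89, standard error 0.06, adjusted p = 1.76e-14). TGFβ1 lowered it 1.87-fold in 0TF (log2 fold change -0.90, standard error 0.06, adjusted p = 4.27e-10) and 1.68-fold in HNGMT MEFs (log2 fold change -0.75, standard error 0.06, adjusted p = 1.1e-08), and these effects differed by 0.15 (standard error 0.08, adjusted p = 0.186). The SB value in 0TF MEFs was 0.53 (standard error 0.06, adjusted p = 2.03e-06), a 1.45-fold higher level that missed the fold threshold. In HNGMT MEFs it was -0.05 (standard error 0.06, adjusted p = 0.832). The 2 SB effects differed by -0.58 (standard error 0.08, adjusted p = 0.00011), just under the fold threshold. That difference was called after quantile normalization, after centring the arrays on their medians and with some single cultures left out. In CFs Matn2 read 7.90, 7.83 and 7.87 with DMSO, 7.67, 7.54 and 7.50 with TGFβ1, and 8.06, 8.16 and 7.77 with SB. The TGFβ1 cultures were below the DMSO cultures (log2 fold change -0.30, standard error 0.10, adjusted p = 0.107), which did not pass. Without SB replicate 3 the standard error was 0.05 and the adjusted p 0.00466, with the fold still under the threshold, and with array weights it was called (-0.35, adjusted p = 2.24e-05). The SB value was 0.13 (adjusted p = 0.946), and 0.24 (adjusted p = 0.0932) without SB replicate 3.

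Sp7, the osteoblast factor osterix, did not pass the test in any of the comparisons. Its levels ran from 6.40 to 6.71 over the 18 MEF cultures and from 5.99 to 6.20 over the 9 CF cultures. Within each cell type the groups compared overlapped, and all values lay in the range of the genes of unrelated tissues. The fitted values of its treatment and factor comparisons ran from -0.06 to 0.08, with standard errors of 0.05 to 0.06.

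Other genes of cartilage were followed as a list of 19, all measured, from collagens to small proteoglycans. TGFβ1 in 0TF MEFs raised 1 (Col10a1) and lowered 3 of them, where 4.21% of all genes rose and 6.19% fell, with a list median of -0.05 against 0.05 over all genes. Epyc (epiphycan, a small proteoglycan of growth plate cartilage) read 10.54, 10.35 and 10.48 with DMSO, 6.61, 6.70 and 6.36 with TGFβ1, and 9.13, 8.996 and 8.98 with SB in 0TF MEFs. It thus fell to dim levels with TGFβ1, at least 7.21-fold (fitted log2 fold change -3.90, standard error 0.08, adjusted p = 1.45e-16), and in HNGMT MEFs at least 9.33-fold (fitted log2 fold change -4.21, standard error 0.08, adjusted p = 5.58e-16). Fmod (fibromodulin, a collagen-binding proteoglycan) fell with TGFβ1 (log2 fold change -3.53, standard error 0.06, adjusted p = 1.47e-17) and with SB (log2 fold change -1.26, standard error 0.06, adjusted p = 8.21e-11) in 0TF MEFs. Col10a1, the collagen of hypertrophic chondrocytes, rose with TGFβ1 in 0TF (log2 fold change 1.64, standard error 0.07, adjusted p = 2.74e-12) and in HNGMT MEFs (log2 fold change 1.18, standard error 0.07, adjusted p = 5.6e-10), and fell with SB in 0TF MEFs (log2 fold change -0.73, standard error 0.07, adjusted p = 7.31e-07). Col2a1, the main collagen of cartilage, was chosen after its values were seen: it gave -0.01 (standard error 0.06, adjusted p = 0.922) with TGFβ1 in 0TF MEFs, and was higher with HNGMT when both arms had TGFβ1 (log2 fold change 0.71, standard error 0.06, adjusted p = 4.43e-08).

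Among 14 measured regulators of chondrocytes and the growth plate (of 15 listed), TGFβ1 raised 1 and lowered 3 in 0TF MEFs and raised 2 and lowered 1 in HNGMT MEFs, against 4.21% and 6.19% of all genes in 0TF and 2.23% and 3.54% in HNGMT MEFs. Chst11, the enzyme that adds sulfate to chondroitin chains, rose with TGFβ1 in 0TF (log2 fold change 2.12, standard error 0.05, adjusted p = 8.01e-16), in HNGMT MEFs (log2 fold change 1.19, standard error 0.05, adjusted p = 6.68e-12) and in CFs (log2 fold change 0.78, standard error 0.07, adjusted p = 0.000613), and rose with HNGMT in DMSO (log2 fold change 1.87, standard error 0.05, adjusted p = 6.56e-15). Trps1, a repressor active in growth plate cells, fell with TGFβ1 in 0TF (log2 fold change -1.50, standard error 0.05, adjusted p = 2.4e-14) and HNGMT MEFs (log2 fold change -1.10, standard error 0.05, adjusted p = 5.36e-12). Bmpr1b, a type I BMP receptor, fell with HNGMT, at least 2.31-fold to a dim level when both arms had TGFβ1 (fitted log2 fold change -1.49, standard error 0.08, adjusted p = 4.4e-11).

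Of 18 measured osteoblast and bone genes (of 22 listed), TGFβ1 raised 2 and lowered 2 in 0TF MEFs (4.21% and 6.19% of all genes), with a list median of 0.06 against 0.05 over all genes. Phex, an endopeptidase of bone mineralization, fell at least 5.08-fold with TGFβ1, to a dim level (fitted log2 fold change -3.08, standard error 0.08, adjusted p = 1.53e-15) and rose with SB (log2 fold change 1.19, standard error 0.08, adjusted p = 3.29e-09) in 0TF MEFs. Bmp2, a bone-inducing ligand, fell at least 4.11-fold with TGFβ1 in 0TF MEFs, also to a dim level (fitted log2 fold change -2.46, standard error 0.11, adjusted p = 2.04e-12) and rose with SB in HNGMT MEFs (log2 fold change 1.22, standard error 0.11, adjusted p = 5.25e-07). Alpl, the alkaline phosphatase of mineralizing cells, rose with HNGMT (log2 fold change 2.43, standard error 0.09, adjusted p = 2.39e-13 in DMSO). In CFs Alpl read 8.85, 8.89 and 10.97 with SB, another gene high in SB replicate 3.

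Tendon and ligament genes, a list that also holds Fmod, mostly fell in 0TF MEFs given SB. Of 9 genes 7 fell (1.13% of all genes fell), with a list median of -1.11 against -0.01 over all genes, and 4 fell and 1 rose with TGFβ1 (6.19% and 4.21% of all genes). In HNGMT MEFs 1 fell with SB (0.431%) and 5 with TGFβ1 (3.54%). Kera (keratocan) fell at least 5.16-fold with TGFβ1, to a dim level (fitted log2 fold change -3.07, standard error 0.09, adjusted p = 1.29e-14) and with SB (log2 fold change -0.83, standard error 0.09, adjusted p = 2.36e-06) in 0TF MEFs. Tnmd (tenomodulin, a marker of mature tendon cells) fell with TGFβ1 (log2 fold change -2.68, standard error 0.10, adjusted p = 2.9e-13) and with SB (log2 fold change -0.67, standard error 0.10, adjusted p = 7.62e-05) there too. Adipocyte markers moved in these same SB cultures: 9 of 9 rose, from a mean of 8.18 to 8.20 with DMSO to 10.76 to 10.82 with SB, and their part in the falls of Comp, Hapln1 and the tendon genes was not tested. In HNGMT MEFs 2 of 9 adipocyte markers rose with SB, from 7.89 to 7.98 to 8.21 to 8.33.

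**Figure D5:**
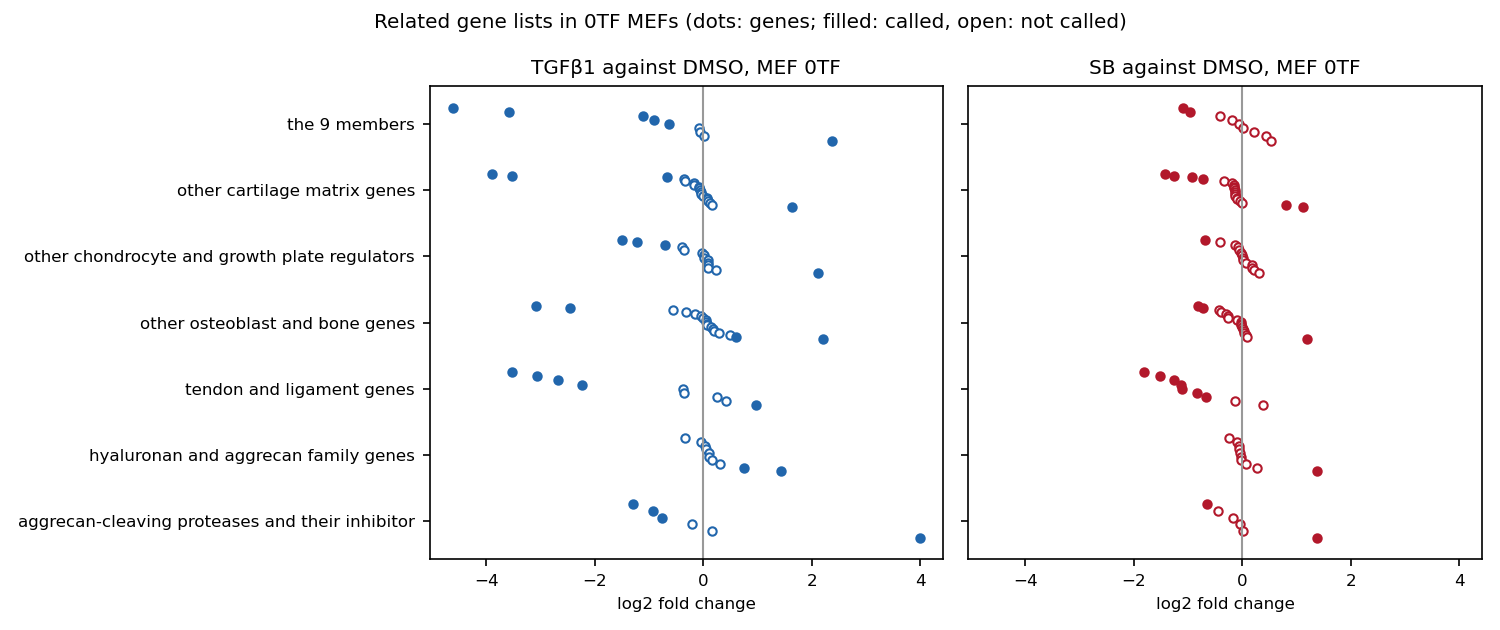
Log2 fold change (horizontal axes, one scale) of single genes, grouped by list, for TGFβ1 and for SB against DMSO in 0TF MEFs; filled dots are called genes and open dots genes that were not. Members span -4.62 to 2.38 with TGFβ1, and with SB the filled dots of the tendon list, 7 of 9, all lie below 0.

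Among 10 genes of hyaluronan and the aggrecan family, 2 rose with TGFβ1 in 0TF MEFs, where 4.21% of all genes rose, and the other 8 did not pass. Has2, the main hyaluronan synthase of mesenchyme, rose with TGFβ1 in 0TF (log2 fold change 1.43, standard error 0.06, adjusted p = 2.68e-12), in HNGMT MEFs (log2 fold change 1.31, standard error 0.06, adjusted p = 2.61e-11) and in CFs, from a dim DMSO group with no bound above 1-fold (fitted log2 fold change 0.91, standard error 0.14, adjusted p = 0.00681). It was lower with HNGMT under each treatment, by the most in SB (log2 fold change -3.65, standard error 0.06, adjusted p = 1.42e-17). Vcan, the aggrecan relative versican, was lower with HNGMT (log2 fold change -1.53, standard error 0.04, adjusted p = 1.14e-14 in DMSO), and Cd44, a hyaluronan receptor, rose with TGFβ1 in 0TF MEFs (log2 fold change 0.75, standard error 0.05, adjusted p = 5.78e-10).

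Of 6 genes of aggrecan-cleaving proteases and their inhibitor, TGFβ1 raised 1 and lowered 3 in 0TF MEFs (4.21% and 6.19% of all genes). Mmp13, a collagenase of cartilage and bone, read 7.57, 7.47 and 7.37 with DMSO, 11.48, 11.57 and 11.33 with TGFβ1, and 6.55, 7.12 and 6.82 with SB in 0TF MEFs. It rose with TGFβ1 there, at least 14.5-fold from a dim DMSO group (fitted log2 fold change 3.99, standard error 0.12, adjusted p = 1.06e-14) and in HNGMT MEFs (log2 fold change 2.64, standard error 0.12, adjusted p = 9.26e-12). Adamts5, the main aggrecanase of mouse cartilage, fell with HNGMT, by the most with TGFβ1 in both arms (log2 fold change -2.31, standard error 0.06, adjusted p = 1.6e-15). Adamts15, another aggrecanase, fell at least 2.07-fold with TGFβ1, to a dim level (fitted log2 fold change -1.29, standard error 0.05, adjusted p = 1.2e-13) and rose with SB (log2 fold change 1.38, standard error 0.05, adjusted p = 3.16e-13) in 0TF MEFs.

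The genes whose levels ran most like a member's were found by Pearson's r over the 18 MEF arrays, which fall into 6 groups of treated cultures, so r here mostly follows the group means. Srpx, Klf4 and Sardh ran most like Sox9 (r of 0.990, 0.987 and 0.987). Afdn, Ano1 and Alpl ran most like Sox5 (0.990, 0.988 and 0.987). Chrdl1, Ptchd1 and Xpnpep2 ran most like Sox6 (0.988, 0.985 and 0.984). No gene is given for Sp7, which was called in no comparison. Erv3, Tmprss2 and P2ry2 were nearest to Acan (0.992, 0.987 and 0.986), and Galnt13, Ism1 and Rarres1 to Comp (0.990, 0.988 and 0.988). Fmod, Igfbp2 and Gabrb2 were nearest to Hapln1 (0.983, 0.976 and 0.973), Smurf1, Gpr137b-ps and H13 to Prg4 (0.974, 0.972 and 0.962), and Sh3pxd2b, Arhgap28 and Cachd1 to Matn2 (0.990, 0.989 and 0.988).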

How the data were processed

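RNA from 18 MEF and 9 CF cultures was read on Affymetrix Mouse Gene ST arrays. The authors deposited log2 intensities per probe set, which were used unchanged; the labels name MAS5 and the paper also names PartekGS, while how probes were summarized, corrected and normalized is not given in the sources used here. Of 35556 probe sets, 21789 carried 1 gene symbol in GEO's platform annotation, 1621 several and 12146 none. The single-symbol sets gave 19938 genes, and the brightest set stood for the 999 genes with several. Groups with all cultures at or under the highest value of 8 genes of unrelated tissues were called dim, and folds against them were bounded at that value. Genome positions of the probe sets were not used here.

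Comparisons used limma (version 3.58.1, R 4.3.3; lmFit and eBayes, two-sided, Benjamini-Hochberg over all genes), with all MEF arrays in 1 fit (12 residual degrees of freedom), all CF arrays in another (6), and all 27 for the difference between cell types (18). There were 12 comparisons. Thresholds were an adjusted p under 0.05 with a fold of at least 1.5, or 25% over the lower group in CFs. In simulated data on 19938 genes for TGFβ1 against DMSO with HNGMT, 50 genes changed at each fold were recovered in 54% of cases at 1.5-fold and 100% at 2-fold in MEFs, with 0 false calls, and in 74% and 94% in CFs, with 6 false calls. The simulated 1.5-fold changes lay on the MEF call threshold itself, while CFs were called at 25%. The recovered shares are therefore not comparable between the cell types. Noise was drawn independently for each culture. The number of arrays limits the precision. Same-numbered CF cultures with DMSO and TGFβ1 deviated together (r of 0.65, 0.55 and 0.12 for numbers 1 to 3). The main fits did not pair them, and the replicate number entered only as a block among the alternatives. In the other comparisons at least 1 number had r under 0.1, but some numbers also deviated together in HNGMT MEFs. For numbers 1 to 3 r was 0.59, 0.52 and -0.01 with DMSO and TGFβ1, and 0.46, 0.03 and 0.33 with DMSO and SB.

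All 9 measured members were named in every comparison, with up to 3 called genes of each related list by the largest fold, and 3 genes nearest in pattern to each called member. The members and lists were chosen with earlier results of these data known. Alternatives changed which arrays entered the fit, added the replicate number as a block or weights for arrays, changed the variance model, removed dim genes below percentile 40, summarized or normalized probe sets differently, moved the fold threshold, and left out single cultures. An alternative without CF HNGMT+SB replicate 3 was added after seeing the data. Figures were drawn in Python 3.11.15 (matplotlib 3.10.9).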

Additional observations from a re-analysis of the deposited data

Results flagged for a closer look

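Effects that differed between groups by a test of the difference itself (limma, adjusted over all genes), past both the adjusted p and the fold threshold, are collected here as values. The TGFβ1 effect in HNGMT MEFs minus that in 0TF MEFs was 1.15 for Acan (adjusted p = 1.73e-08), 2.30 for Comp (adjusted p = 4.06e-13), 2.28 for Hapln1 (adjusted p = 2.95e-12) and -0.78 for Prg4 (adjusted p = 0.000134), on the log2 scale. The SB effect differed between the same arms by -0.67 for Sox9 (adjusted p = 1.11e-05) and -1.16 for Prg4 (adjusted p = 8.69e-06). The TGFβ1 effect in CFs minus that in HNGMT MEFs was 2.31 for Sox9 (adjusted p = 1.09e-07), 2.74 for Comp (adjusted p = 1.11e-14) and 1.35 for Hapln1 (adjusted p = 1.71e-10). Dim levels enter all of these except those of Sox9 and the TGFβ1 value of Prg4, so their sizes are fitted values and not measured ones. Age, tissue, passage and array level differ along with the cell type in the last comparison and cannot be told apart from it.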

How the results depend on the processing

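Over 1979 alternative values of the members, 1908 stayed called or stayed not called, 18 lost and 53 gained a call. Among values called in the main fit or in the alternative, 0 reversed direction. Where neither was called, direction was not compared. The cause of the changes was not tested unless the setting itself shows it. Without a fold threshold the members called were 7 for SB in 0TF MEFs, 5 for SB in HNGMT MEFs, 8 for HNGMT in DMSO, 8 for HNGMT in SB and 5 for the SB effect between arms. With the fold thresholds of MEFs and CFs exchanged these were 5 for SB in 0TF MEFs, 4 for SB in HNGMT MEFs, 7 for HNGMT in DMSO and 4 for the SB effect between arms. The shares of all genes called at the exchanged thresholds were not counted, so these counts cannot be set against a background. With all 27 arrays in the fit, which brings the spread of the CF cultures into the MEF tests, the SB effect between arms called 0 members (Sox9 adjusted p = 0.105, Prg4 0.303), the TGFβ1 difference between arms for Prg4 had an adjusted p of 0.318, HNGMT in SB for Prg4 0.135, and SB in CFs called 1 member. Array weights gave 1 and 1 for the SB effect between arms and for SB in CFs.

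Leaving out each culture in turn gave 1 to 3 members for TGFβ1 in CFs, 2 to 3 for the SB effect between arms, 3 to 4 for the TGFβ1 effect in CFs minus MEFs, and the main count elsewhere. SB in CFs called 48 of all genes, 377 without SB replicate 3 (chosen after seeing the data) and 15 with a replicate block. The replicate block left TGFβ1 in CFs at 3 members (987 of all genes against 1060), called Prg4 in the difference between CFs and MEFs (adjusted p = 0.0469, 4 members against 3), and changed no other call of a member. An array correlated best with one of its own number in 7 of 18 MEF and 5 of 9 CF arrays. Centring the arrays on their medians moved the median of all genes from 0.05 to 0.13 for TGFβ1 in 0TF MEFs and from -0.04 to -0.13 for HNGMT in TGFβ1. Dim levels, where the size of a fall could not be measured, were those of Sp7 in all groups, Acan in all but the HNGMT+TGFβ1 groups of MEFs and CFs, Comp and Hapln1 in CFs and with TGFβ1 in 0TF MEFs, and Prg4 in MEF HNGMT+SB and in CFs with DMSO or TGFβ1. The definition of a dim group was chosen after seeing the data, and its upper limit was set by 1 gene, Tg.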
